A study of Mus musculus with 6 samples.

Results

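The Reg family comprises 7 mouse genes, Reg1, Reg2, Reg3a, Reg3b, Reg3d, Reg3g and Reg4, which encode small secreted proteins built around a C-type lectin domain. They were taken by symbol, and all 7 were among the 24452 gene symbols measured. The measurements were RNA-seq of small intestine from C57BL/6 mice at postnatal day 14, before weaning. The study has 3 libraries of wild type mice (WT 1 to WT 3) and 3 labelled Erk1/2 -/- (labelled KO 1 to KO 3), a homozygous loss of ERK kinases, which carry growth factor signals from the Ras pathway to the nucleus. The sources used here do not give the Cre line, promoter or cell type behind the loss, if any, or whether the triplicates were separate animals. The p-values therefore speak only of the spread among 6 libraries, which may be technical. The series title asks what part Erk1/2 feedback plays in the postnatal intestine, and the only comparison is between the genotypes.

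REG3 proteins are released by enterocytes, Paneth cells and goblet cells into the mucus. REG3G and REG3B bind the surface of bacteria, kill some of them and help to keep them away from the epithelium, and their genes are induced in the gut by microbes, by interleukin 22 acting through STAT3 and by interleukin 1 family signals. REG1 and REG2 were first known from the exocrine pancreas and from regenerating islets. REG4 is made by enteroendocrine and other secretory cells of the gut.

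The libraries need 3 remarks before the results. Mapk3, which encodes ERK1, was not lower in the libraries labelled KO, at 3142, 2788 and 2004 normalised counts in WT 1 to 3 and at 3363, 2280 and 2734 in labelled KO 1 to 3. The value covers the gene as a whole and does not show single exons, but it does not bear out the labels, and every direction below is that of the labels. WT 3 and labelled KO 1 stood apart in regional genes: the mean of 6 proximal markers minus that of 6 distal markers was 1.91 and 0.22 on the log2 scale in these libraries and 6.10 to 7.78 in the other 4. WT 1 held the most pancreas acinar transcripts, a sum of 71898 over 29 markers against 936 to 9300 in the other 5. The gut epithelium itself was plain in every library, with its 16 markers summing to between 1137045 and 2079613. Of the 5 fat cell markers, Adipoq and Lep were at 0 in all 6 libraries, Plin1 and Cfd at 6 or less, and Fabp4 at 227 to 578. All normalised counts of a library summed to between 13641468 and 17153570.

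Of the 7 genes, 6 lie together on chromosome 6 within 98.2 kb, and Reg4 lies alone on chromosome 3. In GENCODE vM21 coordinates of GRCm38 the cluster holds Reg3b (78370657 to 78373466, plus strand), Reg3d (78375874 to 78378865, minus), Reg3a (78380709 to 78383827, plus), Reg2 (78395623 to 78408106, plus), Reg1 (78422711 to 78428667, plus) and Reg3g (78466269 to 78468872, minus). Reg4 runs from 98222156 to 98236748 on the plus strand of chromosome 3. The coding sequences of the 21 pairs of members were between 50.09% and 78.74% identical. Reg1 and Reg2 were the closest pair, and Reg3b and Reg3g followed at 75.95%. The longest stretch that any pair of transcripts shared was 35 bases, between Reg3b and Reg3g. The sources used here do not give how reads with several matches were treated, so reads from such stretches may have been dropped or split.

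The 184 bases before the RefSeq start of 4 of the REG3 genes are shown because 3 of them, Reg3b, Reg3g and Reg3a, were the members that rose, and Reg3d, which lies between Reg3b and Reg3a, did not pass the test. Sequences are from RefSeq on GRCm38.p6, 5′ to 3′ on each gene's own strand and ending at the base before the start, at chr6:78370701-78370884 (plus) for Reg3b, chr6:78468875-78469058 (minus) for Reg3g, chr6:78380525-78380708 (plus) for Reg3a and chr6:78378866-78379049 (minus) for Reg3d. The RefSeq start of Reg3b lies inside the GENCODE gene given above, so its window does too, as do the Reg1 and Reg2 windows counted below. The length was set so that few annotated exon bases fell in these 4 windows. Capitals mark matches, on either strand, to the TATA box letters TATAAA and to TTCNNNGAA, the palindrome that STAT dimers bind.
Reg3b: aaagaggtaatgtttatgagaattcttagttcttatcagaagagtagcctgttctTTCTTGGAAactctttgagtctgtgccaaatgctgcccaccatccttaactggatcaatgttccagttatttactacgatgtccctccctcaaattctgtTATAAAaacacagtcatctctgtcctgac
Reg3g: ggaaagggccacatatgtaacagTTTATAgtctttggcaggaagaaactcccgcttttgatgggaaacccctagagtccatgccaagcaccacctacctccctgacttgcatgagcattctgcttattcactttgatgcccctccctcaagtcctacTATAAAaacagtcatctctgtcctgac
Reg3a: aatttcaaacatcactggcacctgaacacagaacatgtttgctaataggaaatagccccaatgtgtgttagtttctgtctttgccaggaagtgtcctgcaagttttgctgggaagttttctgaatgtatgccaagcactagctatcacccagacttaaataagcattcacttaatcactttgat
Reg3d: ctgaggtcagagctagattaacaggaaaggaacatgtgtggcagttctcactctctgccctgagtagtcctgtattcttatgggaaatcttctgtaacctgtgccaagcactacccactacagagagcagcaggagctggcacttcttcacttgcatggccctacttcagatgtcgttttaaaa

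The Reg3b and Reg3g windows were the most alike of the 21 pairs, 66.31% identical where the other 20 pairs had 42.55% to 59.5%. They share the 20 bases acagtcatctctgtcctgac directly before the start. Each has TATAAA shortly before it, at 29 to 24 bases in Reg3b and 27 to 22 bases in Reg3g. Anywhere in the window and on either strand, TATAAA was found in 4 of the 7 members and in 9.10% of 32851 mouse promoters of the same length. A forward TATAAA that starts 24 to 35 bases before the start was present in 4 of the 7 members (Reg1, Reg2, Reg3b and Reg3g) and in 1.78% of the promoters. The Reg3g window has another match on the reverse strand, 161 to 156 bases before the start. TTCNNNGAA was found in 1 of the 7 windows, as TTCTTGGAA at 129 to 121 bases before the Reg3b start, and in 5.01% of all promoters. A match of letters is no evidence of binding, and the absence of one covers these windows only.

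Reg3b, whose product is a lectin active mainly against Gram-negative bacteria, went from a minor transcript to one of the most abundant of the tissue. It was at 187, 37 and 856 normalised counts in WT 1 to 3 and at 130898, 162345 and 67261 in labelled KO 1 to 3. Even the lowest library labelled KO was 78.6 times the highest WT library. Mean levels were 360 ± 436 in WT and 120168 ± 48442 in the libraries labelled KO (SD, n = 3 each), a ratio of 334. Ranked by normalised count within its library, not divided by length, Reg3b was number 8881, 12642 and 3382 in WT 1 to 3 and number 3, 3 and 9 in labelled KO 1 to 3. On the scale of log2(normalised count + 1), on which all fold changes here were tested, its change of 9.27 ± 1.03 (SE; limma adjusted p = 0.0108) ranked 1 among all 14686 genes tested.

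Reg3g, the lectin active against Gram-positive bacteria, followed closely. Its normalised counts were 108, 38 and 327 in WT 1 to 3 and 36707, 37144 and 12467 in labelled KO 1 to 3. The lowest library labelled KO was 38.1 times the highest WT library, and the means were 158 ± 151 and 28773 ± 14123 (SD, n = 3 each). The log2 fold change of 7.85 ± 0.79 (SE; limma adjusted p = 0.00780) ranked 2 among all genes tested. WT 3 held the most of both transcripts and WT 2 the least among the WT libraries, while labelled KO 3 held the least of both among the libraries labelled KO.

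Reg3a, a further REG3 lectin of the same cluster, rose on a smaller scale. It was at 89, 40 and 146 normalised counts in WT 1 to 3 and at 548, 419 and 238 in labelled KO 1 to 3. The groups did not overlap, but labelled KO 3 was only 1.63 times WT 3. The means were 91.7 ± 53.1 and 402 ± 156 (SD, n = 3 each) and the log2 fold change was 2.22 ± 0.50 (SE; limma adjusted p = 0.0438). This call was the least firm of the 3: it was lost without WT 1 (adjusted p = 0.127), WT 2 (0.144), labelled KO 2 (0.0845) or labelled KO 3 (0.0953), with no filter on low values (0.0550) and without an intensity trend (0.0529), all by limma.

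Thus 3 of the 6 members that could be tested rose and 0 fell, where 4.85% of all 14686 genes tested were called higher, 3.94% lower and 8.79% were called in either direction. By limma, 0 members were lower at an unadjusted p under 0.05 as well. The same 3 members had groups that did not overlap, as had 19.8% of all genes tested in the higher direction. The median log2 fold change was 2.13 over the 6 tested members and -0.01 over all genes tested. The call for Reg3b leaned on some libraries: its limma adjusted p was 0.0509 without WT 1 and 0.0544 without labelled KO 3. Reg3g kept its call without any single library, at a limma adjusted p of up to 0.0418. Without the low-segment libraries WT 3 and labelled KO 1 the log2 fold changes were 10.27 ± 0.72 for Reg3b, 8.37 ± 0.59 for Reg3g and 2.38 ± 0.41 for Reg3a, all called in a fit that called 26.4% of all genes. Without the acinar-rich libraries WT 1 and labelled KO 2 they were 9.02 ± 1.46, 7.56 ± 1.10 and 2.22 ± 0.72 (limma adjusted p of 0.165, 0.158 and 0.221). In that fit of 2 against 2 libraries limma called 0 of 14193 genes, with 2766 genes and 3 members at an unadjusted p under 0.05.

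**Figure D1:**
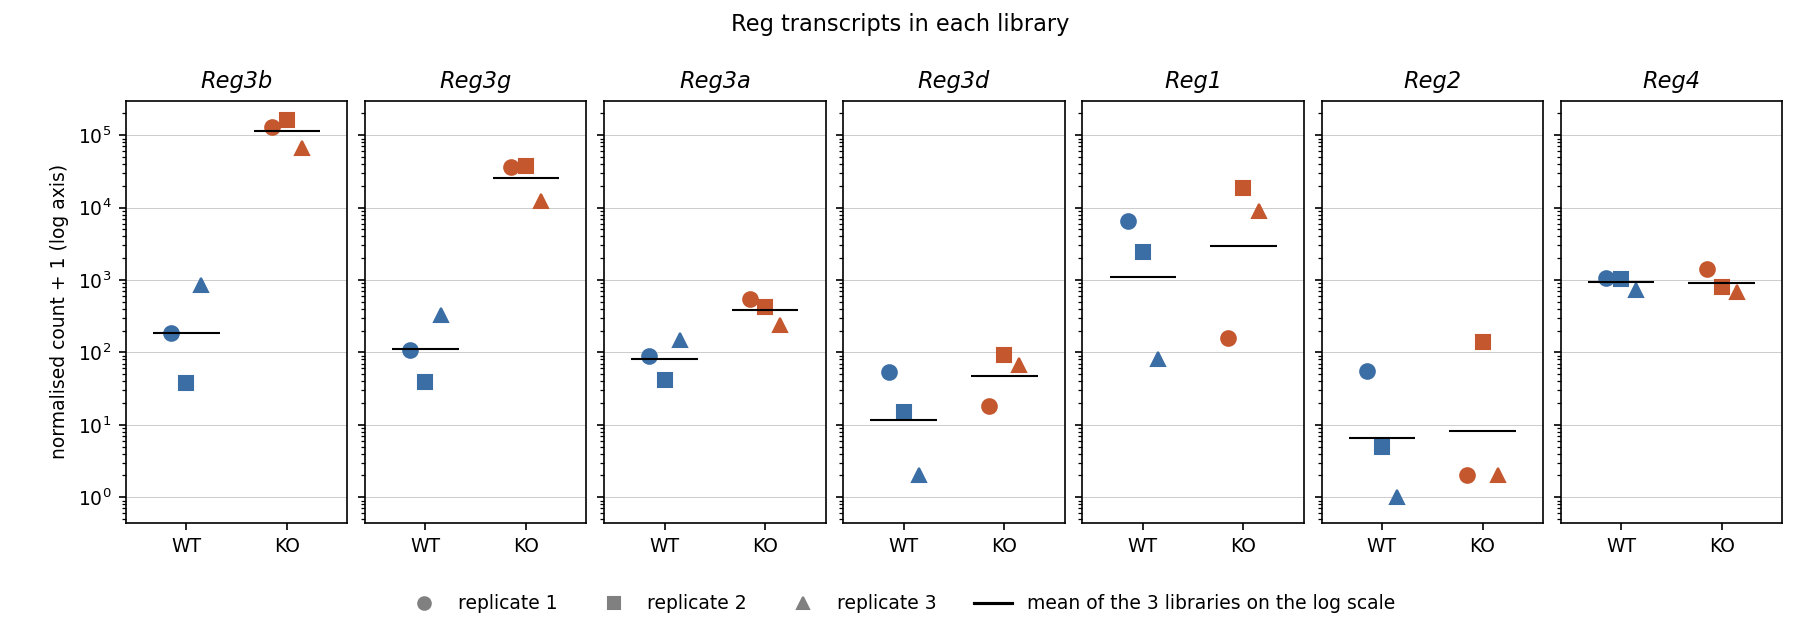
Normalised count + 1 of the 7 Reg genes in each library (log axis), with WT in blue and libraries labelled KO in orange, and a bar at the mean on the log scale. Reg3b, Reg3g and Reg3a have groups that do not overlap, Reg1, Reg2 and Reg3d spread widely within each group, and Reg4 is level.

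**Figure D2:**
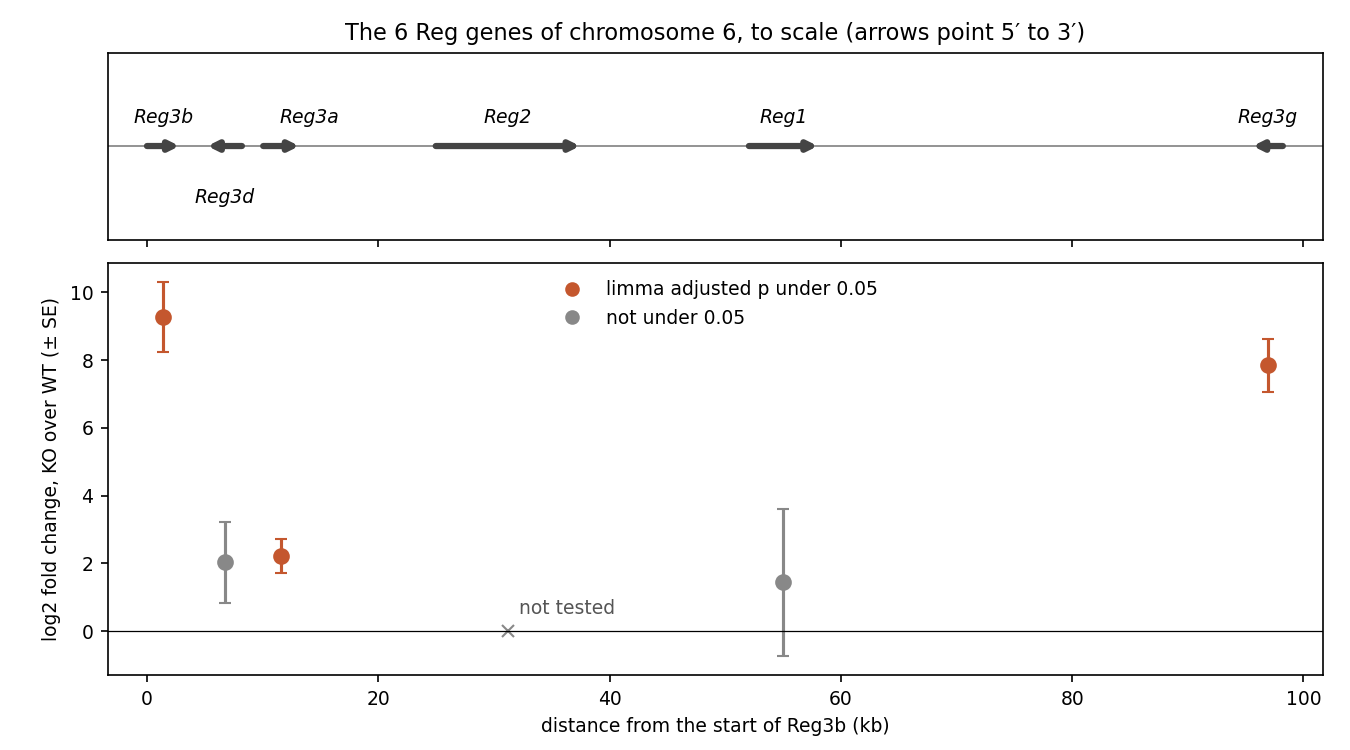
The 6 Reg genes of chromosome 6 drawn to scale along the 98.2 kb cluster (top) and their log2 fold changes, labelled KO over WT, with standard errors (bottom). The called genes Reg3b and Reg3a lie at one end and Reg3g at the other, with Reg1 and Reg3d, which were not called, and Reg2, which was not tested, between them.

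Reg3b and Reg3g did not change in equal measure. The ratio of Reg3b to Reg3g normalised counts within a library was 1.73, 0.974 and 2.62 in WT 1 to 3 and 3.57, 4.37 and 5.40 in labelled KO 1 to 3. Every library labelled KO lay above every WT library. The mean log2 ratio was 0.71 ± 0.71 in WT and 2.13 ± 0.30 in the libraries labelled KO (SD, n = 3 each), a difference of 1.42 with an exact two-sided permutation p of 0.1, the smallest that 3 against 3 libraries can give.

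Reg3d, a REG3 gene of unclear function between Reg3b and Reg3a, stayed low. Its normalised counts were 52, 14 and 1 in WT 1 to 3 and 17, 92 and 65 in labelled KO 1 to 3. WT 1 exceeded labelled KO 1, so the groups overlapped, and the log2 fold change of 2.04 ± 1.20 (SE) did not pass (limma adjusted p = 0.290). WT 3 and labelled KO 1, the libraries with low segment scores, had the lowest value of their group.

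Reg1, the founding member of the family and a product of pancreas and proximal gut, varied more within each group than between them. It was at 6538, 2431 and 81 normalised counts in WT 1 to 3 and at 155, 18806 and 8858 in labelled KO 1 to 3, an 80.7-fold range within WT and a 121-fold range within the libraries labelled KO. The means were 3017 ± 3268 and 9273 ± 9332 (SD, n = 3 each), and the log2 fold change of 1.44 ± 2.18 (SE) did not pass (limma adjusted p = 0.686). Its sign turned without WT 3, to -0.43.

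The low values of Reg1 were those of WT 3 and labelled KO 1, which also had the low segment scores. Of the 6 proximal markers, 5 were lowest in these libraries. Among them, Pdx1, a transcription factor of duodenum and pancreas, was at 453, 343 and 3 in WT 1 to 3 and at 14, 718 and 682 in labelled KO 1 to 3, and Cybrd1, the duodenal ferric reductase, at 6634, 3087 and 402 and at 224, 9894 and 7285. Fabp1, a fatty acid binding protein, went another way, at 24224 in WT 3 but at 65603 in labelled KO 1, the highest of the 6. Of the 6 distal markers, Fgf15, a hormone of the ileum, Slc51a, Slc51b and Osr2 were highest in WT 3 and labelled KO 1. Fgf15 was at 5, 13 and 1975 in WT 1 to 3 and at 390, 0 and 0 in labelled KO 1 to 3. The ileal bile acid genes Fabp6 and Slc10a2 did not mark WT 3, at 4 and 1 there, while Fabp6 was at 1947 in labelled KO 1. Within the 4 libraries with high scores the mean Reg1 level of those labelled KO was 3.08 times that of WT, and labelled KO 1 was 1.91 times WT 3. In the fit on those 4 libraries alone the log2 fold change was 1.69 ± 0.50 (SE; limma adjusted p = 0.0463), again with 26.4% of all genes called. With the score as a covariate over all 6 libraries it was 1.20 ± 0.53 (limma adjusted p = 0.123).

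Acinar and stomach transcripts did not follow Reg1 in every library. The 29 acinar markers summed to 71898, 4388 and 3032 in WT 1 to 3 and to 9065, 9300 and 936 in labelled KO 1 to 3, and none of the 18 tested was called. Labelled KO 3 had the lowest acinar sum of the 6, with the trypsinogen gene Prss2 at 0, the elastase gene Cela2a at 4, the lipase gene Cel at 5, Cela1 at 199 and the colipase gene Clps at 489, and had Reg1 at 8858. Prss2, Cela2a and Cel were all at 0 in WT 3 and labelled KO 1. The 11 stomach markers summed to 30107, 24641 and 189 in WT 1 to 3 and to 383, 14116 and 376 in labelled KO 1 to 3, again low in labelled KO 3. The part of pancreas and stomach transcripts in the Reg1 values was not tested.

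Reg2, a near relative of Reg1 known from pancreas, was detected mainly in 2 libraries. It was at 54, 4 and 0 normalised counts in WT 1 to 3 and at 1, 140 and 1 in labelled KO 1 to 3, and was not tested because fewer than 3 libraries reached 10. WT 1 and labelled KO 2, the libraries with Reg2, were also the highest of their groups in Prss2, with 2662 and 437, and in Cela2a, with 8766 and 766. The acinar sum of labelled KO 1 was close to that of labelled KO 2, but 7600 of its 9065 came from the chymotrypsinogen gene Ctrb1. Islet markers (Ins1, Ins2 and Iapp) summed to between 5 and 86 in all libraries, with the 86 in WT 1. The part of pancreas transcripts in the Reg2 values was not tested.

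**Figure D3:**
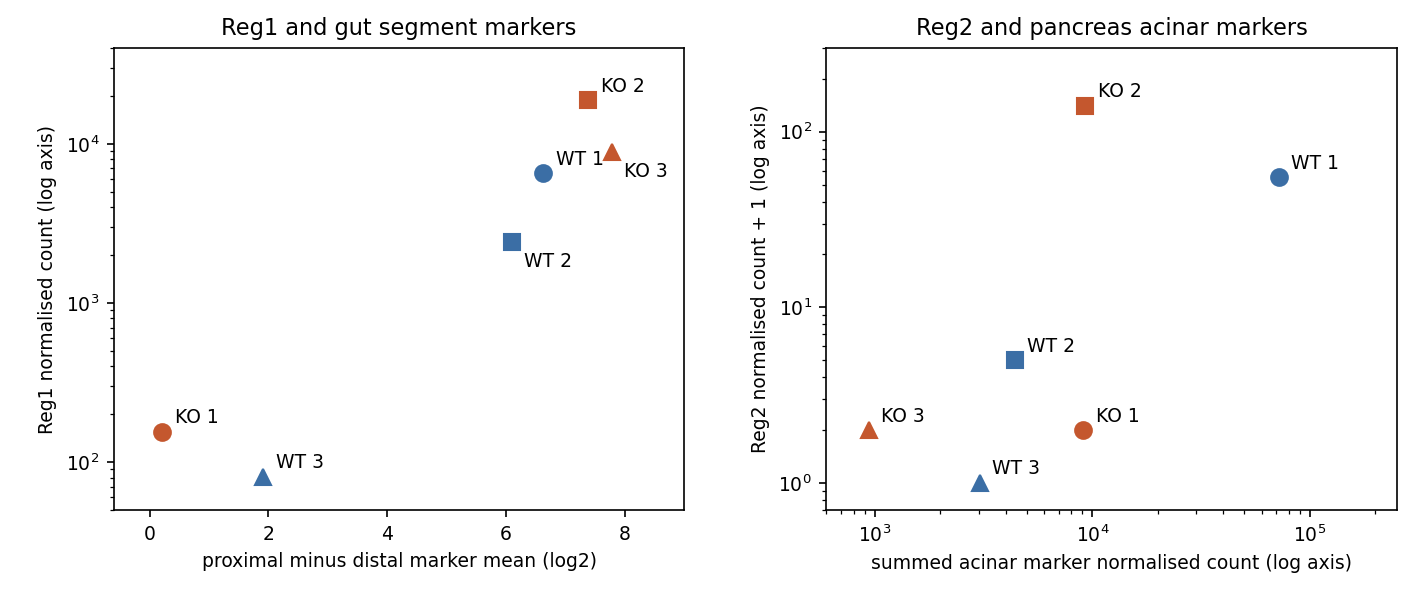
Left, Reg1 normalised count (log axis) against the mean of proximal minus distal markers (log2) in each of the 6 libraries, where WT 3 and labelled KO 1 are low on both axes. Right, Reg2 normalised count + 1 against the summed acinar markers (both log axes), where WT 1 and labelled KO 2 hold most of the Reg2.

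Reg4, a lectin of enteroendocrine and secretory cells, did not differ between the groups beyond the spread of the libraries. Its normalised counts were 1063, 1047 and 716 in WT 1 to 3 and 1428, 793 and 676 in labelled KO 1 to 3. Labelled KO 1 was the highest of all 6 libraries and labelled KO 3 the lowest, so the groups overlapped fully. The means were 942 ± 196 and 966 ± 405 (SD, n = 3 each), and the log2 fold change of -0.02 ± 0.31 (SE) did not pass (limma adjusted p = 0.971). Without WT 3 and labelled KO 1 it was lower in the remaining libraries labelled KO, with a log2 fold change of -0.53 ± 0.13 (SE; limma adjusted p = 0.0243), in a fit that called 12.1% of all genes lower. Among 17 enteroendocrine markers 0 were called, beside 8.79% of all genes tested. Of their log2 fold changes 5 were positive, and the median was -0.42. Only Isl1 and Scg2 had groups that did not overlap and were lower in the libraries labelled KO, as had 17.8% of all genes tested. Scg2 was at 340, 352 and 262 in WT 1 to 3 and at 84, 176 and 178 in labelled KO 1 to 3. Chromogranin A (Chga), a granule protein of enteroendocrine cells, was at 1824, 1724 and 1186 in WT 1 to 3 and at 1801, 773 and 1046 in labelled KO 1 to 3.

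The order of the members by level changed between the groups. Per kilobase of spliced coding transcript, Reg1 led in WT with a mean of 3337 normalised counts, followed by Reg4 (923), Reg3b (460), Reg3g (204), Reg3a (111), Reg3d (28.6) and Reg2 (27.7). The range of each of these over the 3 WT libraries overlapped that of the next in the order. Within every WT library, however, Reg3g was above Reg3a, if barely in WT 2 (49.3 and 48.5), and Reg3a was above Reg3d. The other neighbours changed places in some WT library. In the libraries labelled KO the order was Reg3b (153471), Reg3g (37319), Reg1 (10258), Reg4 (946), Reg3a (487), Reg3d (74.2) and Reg2 (67.8). There Reg3b, at 85902 to 207337 per kilobase, lay wholly above Reg3g, at 16170 to 48176, and Reg3a, at 288 to 664, wholly above Reg3d, at 21.7 to 118. The ranges of the other neighbours overlapped, but within every library labelled KO Reg3g was above Reg1 and Reg4 was above Reg3a.

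Summed over all 7 members, the family made up 0.0589%, 0.0265% and 0.0151% of all normalised counts in WT 1 to 3 and 0.990%, 1.47% and 0.604% in labelled KO 1 to 3. The difference of 5.06 in mean log2 share had an exact two-sided permutation p of 0.1, again the smallest possible here. The make-up of the sum, by normalised counts not divided by length, also differed. In WT 1 and WT 2, Reg1 gave 80.8% and 67.3% of it, while in WT 3 Reg3b and Reg4 gave 40.2% and 33.7%. In labelled KO 1 to 3, Reg3b gave 77.1%, 73.9% and 75.1% and Reg3g 21.6%, 16.9% and 13.9%, so that these 2 lectins held most of the sum in every library labelled KO.

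**Figure D4:**
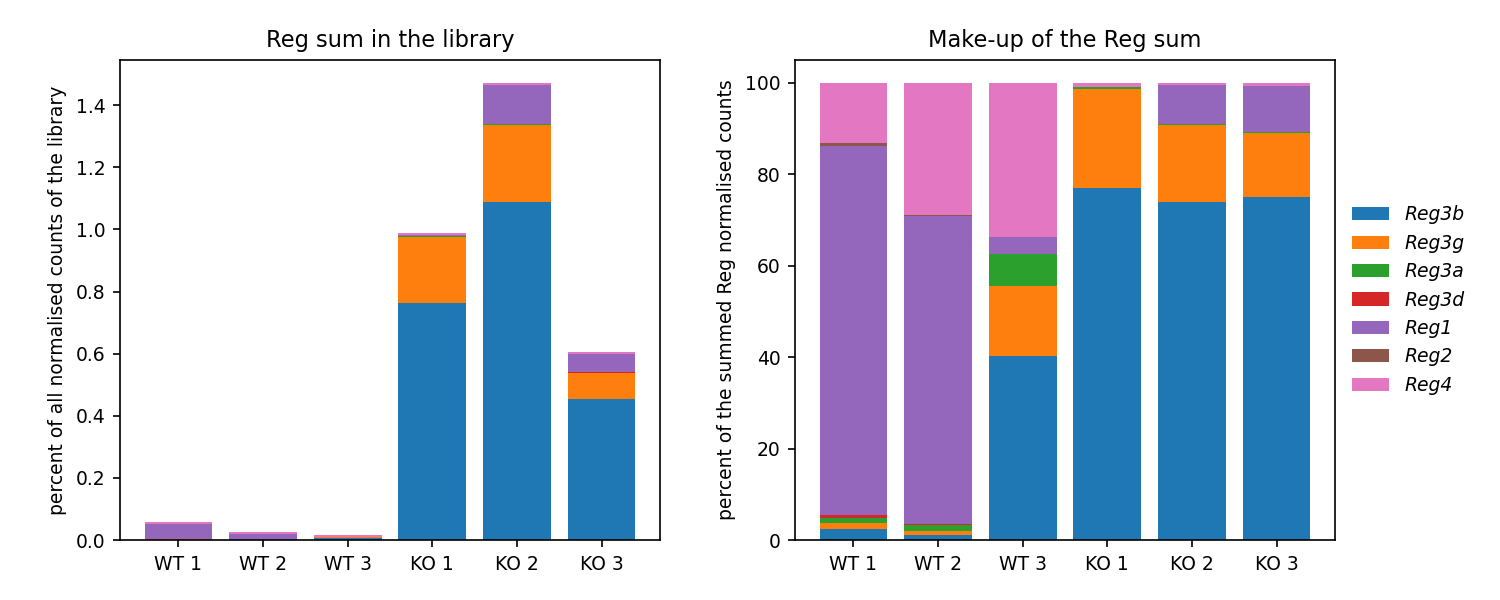
Summed Reg normalised counts as a percent of all normalised counts of each library (left) and the contribution of each member as a percent of that sum (right). The left bars reach 0.604% to 1.47% in the libraries labelled KO and at most 0.0589% in WT, and Reg3b fills 73.9% to 77.1% of each right bar of the libraries labelled KO.

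Other transcripts of the cells that make REG3 proteins were higher in part. Over the 16 Paneth cell markers the sums were 4478, 3020 and 15551 in WT 1 to 3 and 29266, 19066 and 16822 in labelled KO 1 to 3. Of 15 tested, 3 rose, beside the 4.85% of all genes called higher: Mmp7, which activates defensins, Mptx2, a pentraxin, and Itln1, an intelectin. The lysozyme gene Lyz1, at 1665, 993 and 5722 in WT 1 to 3 and at 12358, 8741 and 8715 in labelled KO 1 to 3, had groups that did not overlap but did not pass the test (limma adjusted p = 0.0626). WT 3 was above the other WT libraries in the Paneth sum, as it was in Reg3b and Reg3g. The defensin gene Defa22 was at 34, 50 and 1986 in WT 1 to 3 and at 2090, 605 and 725 in labelled KO 1 to 3, so its groups overlapped. The 15 goblet cell markers summed to between 47601 and 74715 in WT and to between 96328 and 136981 in the libraries labelled KO, and 3 of 15 were called higher. Zg16 and Spink4 were 2 of these, and the third, Retnlb, at 0 in WT, passed the filter on low values only through the libraries labelled KO. Leaving it aside, 2 of 14 rose. The neutrophil markers summed to 633 to 1114 in WT and 1124 to 2566 in the libraries labelled KO. The most abundant of them, Mmp9, was at 460, 318 and 865 in WT 1 to 3 and at 1500, 692 and 841 in labelled KO 1 to 3. Its groups overlapped and it was not called. Leaving aside S100a8, which was under 10 in every WT library and passed the filter only through the libraries labelled KO, 2 of 6 tested rose (S100a9 and Ltf) and Retnlg fell. Of all genes tested, 4.85% were called higher and 3.94% lower. S100a9, at 5, 6 and 17 in WT 1 to 3, also needed libraries labelled KO to pass the filter. Of those not tested, Ly6g was at 0, 0 and 1 in WT 1 to 3 and at 11, 5 and 3 in labelled KO 1 to 3, Mmp8 at 1, 1 and 0 and at 12, 5 and 17, and the granule genes Mpo and Elane at 5 or less in every library. The part of these cells in the Reg values was not tested, and more cells of a type cannot be told apart from more RNA per cell in bulk tissue.

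The genes with the profile closest to each member were found by the root mean square difference of log2 values over the 6 libraries, each centred on its mean. Reg3b and Reg3g were each other's nearest gene, with a difference of 0.839 where Reg3b itself varied by 4.83 about its mean. Next for both, at a greater distance, came Retnlb, the bactericidal resistin-like protein of goblet cells, and Prss22, a secreted serine protease. Their differences were 1.78 and 2.06 from Reg3b and 1.11 and 1.42 from Reg3g. Both genes passed the filter on low values only through the libraries labelled KO. Retnlb was listed at 0 in all 3 WT libraries and at 90, 199 and 96 in labelled KO 1 to 3, and Prss22 at 1, 0 and 0 and at 174, 60 and 139. Closest to Reg3a were Spink4, a protease inhibitor of goblet cells (0.302), Itln1 (0.303) and Ceacam2 (0.391), against a variation of 1.28 in Reg3a itself. Closest to Reg1 were Pdx1 (0.617), the calcium channel gene Trpv6 of the duodenum (0.738) and Cybrd1 (0.996), against 2.96 in Reg1 itself. Pdx1 and Cybrd1 are also in the proximal marker list. For Reg3d the nearest were Teddm3, the arginase gene Arg2 and Cyp2b10 (0.394 to 0.580), and for Reg4 they were Ctla2b, H2-DMa and Paqr7 (0.071 to 0.121), against 1.86 and 0.38 in the members themselves. Such nearness over 6 libraries describes a profile only.

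Genes of the route that induces REG3 proteins moved in part. Of 14 cytokines listed, 12 were in the table and 7 passed the filter on low values. Il18, an interleukin 1 family cytokine stored in the epithelium, was at 76, 70 and 111 normalised counts in WT 1 to 3 and at 617, 678 and 411 in labelled KO 1 to 3 (log2 fold change 2.71 ± 0.26 SE, limma adjusted p = 0.00737). Il11, which signals through gp130 to STAT3, was at 5, 3 and 6 and at 52, 22 and 49. It passed the filter only through the libraries labelled KO, so its test is not given. The other 5 were not called, which leaves Il18 as 1 of 6 called, with a median log2 fold change of 0.75 over the 6. Over all genes tested, 4.85% were called higher and the median was -0.01. Interleukin 22 (Il22), the best known inducer, was at 0, 0 and 0 and at 1, 1 and 0, and Il17a at 1 or less in every library. Il6 reached 7, 5 and 4 in labelled KO 1 to 3 and 3 or less in WT. The call of Il18 held without any single library.

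Among receptors and transducers the share called was near that of all genes tested, 8.33% of each list against 8.79%. Of 12 cytokine receptor genes tested, Il17rc, a subunit of the interleukin 17 receptor, rose (0.67 ± 0.16 SE on the log2 scale, limma adjusted p = 0.0484), a call lost without any one library other than labelled KO 1, and the median was -0.22. Lifr, a receptor subunit that pairs with gp130, was at 423, 447 and 250 normalised counts in WT 1 to 3 and at 94, 185 and 163 in labelled KO 1 to 3, groups that did not overlap, and did not pass (limma adjusted p = 0.0505). The interleukin 22 receptor gene Il22ra1 was at 2843, 2828 and 3073 normalised counts in WT 1 to 3 and at 2651, 3319 and 2017 in labelled KO 1 to 3. Of 12 JAK-STAT and NF-kB transducers 1 was called: Stat5b fell (-0.85 ± 0.19 SE, limma adjusted p = 0.0428), also lost without any one library other than labelled KO 1. Stat3 was at 2742, 2847 and 2953 and at 2838, 4272 and 3496, which overlapped. Without labelled KO 1, 2 of 12 receptor genes were called lower and 1 higher, and 2 of 12 transducers higher and 1 lower. That fit called 1546 of 14525 genes higher and 1452 lower, which is 20.6% in either direction. The 4 proposed receptors of Reg proteins, Extl3, Cd44, Egfr and Il6st, were not called.

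Downstream, 3 of 12 feedback and target genes of STAT3 and NF-kB (beside 4.85% of all genes) rose and 0 fell, with a median log2 fold change of 0.48. They were Lrg1, an acute phase glycoprotein (2.12 ± 0.29 SE), Fut2, which fucosylates epithelial surfaces (2.27 ± 0.39 SE), and Bcl3, a nuclear IkB protein (0.76 ± 0.17 SE), at limma adjusted p of 0.0162, 0.0237 and 0.0402. Socs3, the feedback inhibitor that STAT3 induces, was at 607, 1091 and 863 normalised counts in WT 1 to 3 and at 1660, 1494 and 1106 in labelled KO 1 to 3, groups that did not overlap, without passing the test. The number called was 0 without WT 1 and without labelled KO 3, and 1 without WT 2 and without labelled KO 2. Of all genes, those fits called 0.541%, 0.192%, 0.395% and 4.26%, in that order. Of 17 bacterial sensing genes 11.8% were called, beside 8.79% of all genes: Tlr1, a receptor for bacterial lipopeptides, rose (1.56 ± 0.19 SE, limma adjusted p = 0.0123) and Tlr5, the flagellin receptor, fell (-1.33 ± 0.25 SE, limma adjusted p = 0.0300), with a median of -0.06. Tlr1 lost its call without WT 1, WT 2 or labelled KO 3, and Tlr5 kept its call in the fit without labelled KO 1 alone of the 6 fits that left out 1 library. Without labelled KO 1, where 20.6% of all genes were called, 2 of the 17 were higher and 2 lower.

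Of 20 other antimicrobial proteins of the epithelium, 16 passed the filter on low values and 10 were called higher. Retnlb and S100a8, under 10 in every WT library, passed only through the libraries labelled KO. Leaving these aside, 8 of 14 rose and 0 fell, beside 4.85% of all genes called higher. Of the 8, Saa3 (3, 6 and 12 in WT 1 to 3), Duoxa2 (2, 8 and 11) and S100a9 (5, 6 and 17) also needed libraries labelled KO to pass. The count thus follows in part from the filter. The 8 included Saa3, a serum amyloid (5.69 ± 0.53 SE), Duox2, the peroxide-making oxidase (3.85 ± 0.23 SE), and Lypd8, which holds flagellated bacteria off the epithelium (1.99 ± 0.22 SE), at limma adjusted p of 0.00731, 0.00259 and 0.0107. Over the whole list the number called went from 10 to 4 without WT 1, 3 without WT 2 and 1 without labelled KO 3, where 14 of the list could be tested. Of all genes, these fits called 0.541%, 0.395% and 0.192%. Duox2 was at 396, 559 and 325 normalised counts in labelled KO 1 to 3 and Saa3 at 636, 224 and 351. Lypd8 was at 63848, 46942 and 48827. Of 14 lectins of other families, 4 (28.6%, beside 4.85% of all genes) rose and 0 fell, with a median of 0.40: Lgals3 (2.37 ± 0.37 SE), Itln1 (1.80 ± 0.42 SE), Zg16 (1.44 ± 0.32 SE) and Lgals2 (1.19 ± 0.29 SE). Their limma adjusted p ran from 0.0200 to 0.0496. None of these 4 was called without WT 1, without WT 2 or without labelled KO 3, and 1 was called without labelled KO 2. The fit without labelled KO 2 called 4.26% of all genes, and the others called the shares given above. Without labelled KO 1, where 20.6% of all genes were called, 3 lectins of the list were called higher and 3 lower. With scaling by library totals 2 were called higher and 1 lower, and 1 was called higher with no filter on low values or without an intensity trend. The lists share genes, so their counts are not separate. Itln1 is in the Paneth, antimicrobial and lectin lists and Zg16 in the goblet and lectin lists. Mptx2, Retnlb, S100a8 and S100a9 are each in a marker list and in the antimicrobial list.

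None of the genes tested beside the Reg genes was called higher, where 4.85% of all genes tested were called higher and 3.94% lower. So few genes cannot be set apart from these shares. Within 1000 kb of the chromosome 6 cluster 3 other genes were in the table and 1 could be tested, the catenin gene Ctnna2, at 25, 18 and 33 normalised counts in WT 1 to 3 and 7, 15 and 20 in labelled KO 1 to 3, which was not called. Within 1000 kb of Reg4, 14 of 25 genes were tested, 0 were higher and 1, Prkab2, a subunit of AMP-activated kinase, was lower (185 ± 13.2 and 95.3 ± 13.0 normalised counts, SD, n = 3 each; limma adjusted p = 0.0254).

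**Figure D5:**
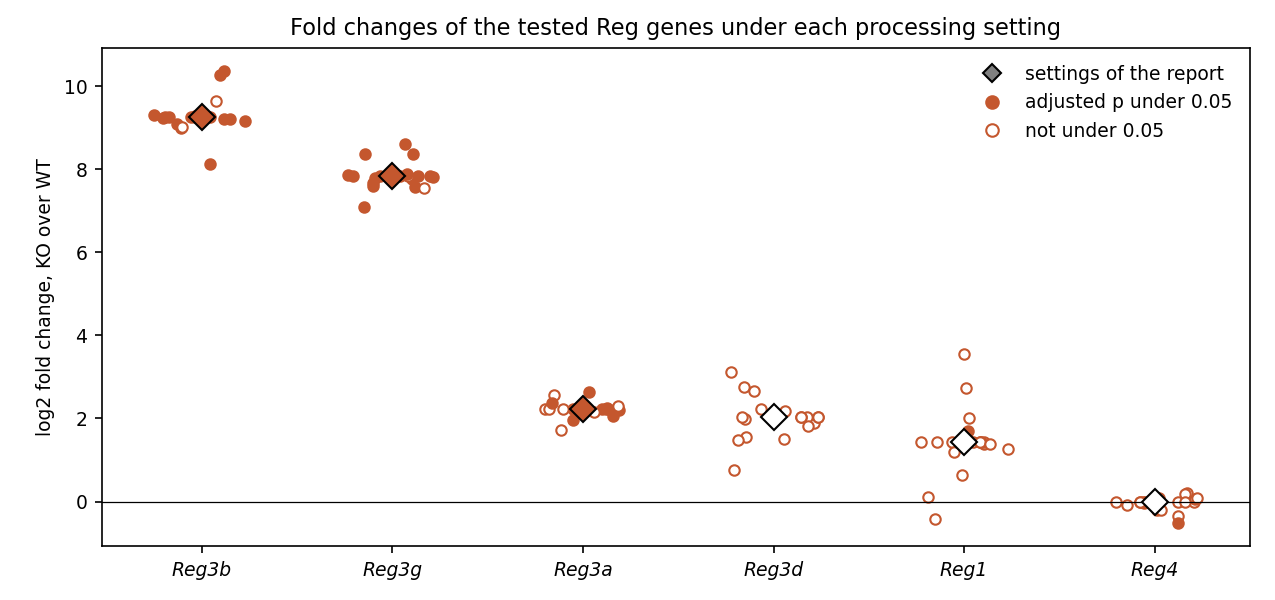
Log2 fold changes, labelled KO over WT, of the 6 tested Reg genes with the settings of the report (diamonds) and under each alternative (circles), filled where the limma adjusted p was under 0.05. Reg3b stays between 8.13 and 10.38, Reg3g between 7.09 and 8.62 and Reg3a between 1.73 and 2.65, while Reg1 and Reg4 fall on both sides of 0.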

How the data were processed

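Small intestine RNA of 3 libraries labelled WT and 3 labelled Erk1/2-KO was measured, grouped by sample title. Per the labels' protocols, Trizol was used on frozen tissue and polyA RNA went into Illumina TruSeq libraries. HTSeq 0.6.0, TopHat2 2.1.0, DESeq2 and the build mm10 are named in the submitters' processing notes. What the authors deposited is one score for each gene symbol. These whole numbers look like read counts that were scaled by 1 factor for each library and then rounded, and are called normalised counts. They are not raw counts, so no count model was used and no counting interval is given. The sources used here give neither read depth nor strand setting. No column was left unused, and 4 rows share a symbol with another.

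limma 3.58.1 in R 4.3.3, with an intensity trend, was run on log2(normalised count + 1) for the 14686 genes that reached 10 in 3 or more libraries. Genotype was the only term, with 4 residual and 2.99 prior degrees of freedom. Two-sided p-values were adjusted by Benjamini-Hochberg over all genes tested, with a threshold of 0.05. Fold changes on this scale understate those of low genes. Single values per library were compared by exact permutation. The script was tested on simulated data. Coding sequences and promoter windows were aligned in pairs with Biopython 1.88, and levels per kilobase used the spliced coding transcript of GENCODE vM21.

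The members, the gene lists and the tests were chosen with earlier results of these data known. Named were all members, the 3 nearest genes by profile of each tested member, up to 4 genes of each pathway list (called genes first, then the most abundant), up to 3 abundant genes of each marker list, tested neighbours and Mapk3. A result that the rule also names is not reported here. Other genes named (Il22, Il17a, Il6, Socs3, Lifr, Fgf15, Fabp6, Prss2, Cel, Mpo, Elane, Scg2, Isl1, Duoxa2, the called markers and further markers of pancreas, islets and fat) were chosen after their values were seen. Alternatives changed scaling, pseudocount, filter, prior, threshold, replicate block and libraries. Leaving out WT 3 with labelled KO 1 or WT 1 with labelled KO 2, and the segment score as a covariate, were added after seeing the data.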

Additional observations from a re-analysis of the deposited data

How the results depend on the processing

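With all libraries 1291 genes were called, 3 Reg members higher and 0 lower. The genes called were 64 with the replicate block, 28 to 2998 when 1 library was left out, 3762 without WT 3 and labelled KO 1, 0 without WT 1 and labelled KO 2, 4638 with the segment score as a covariate, 52 at a threshold of 0.01 and 2847 at 0.10. Reg members called higher were 0 with the replicate block, 1 to 3 when 1 library was left out, 0 without WT 1 and labelled KO 2, and 1 (Reg3g) at a threshold of 0.01. Without WT 3 and labelled KO 1, 1 member (Reg4) was called lower. The cause of these shifts was not tested, beyond the smaller number of libraries in fits that leave some out.

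The replicate numbers gave no sign of a pairing: same-numbered libraries had correlations of their deviations of -0.37, 0.30 and -0.16 over 14686 genes. Libraries with different numbers had -0.44 to 0.41. These values cannot exclude a pairing, since the deviations of 3 libraries from their group mean are tied to each other. With the replicate block the limma adjusted p was 0.0522 for Reg3b, 0.0522 for Reg3g and 0.112 for Reg3a, and the exact permutation p of both within-library values was 0.25, the smallest that 3 pairs can give.

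Reg1 ran from -0.43 without WT 3, where its sign turned, to 3.56 without labelled KO 1. Reg4, at -0.02 with all libraries and -0.34 without labelled KO 1, turned to 0.08 without WT 1, 0.07 without WT 2, 0.08 without labelled KO 2, 0.20 without labelled KO 3 and 0.18 without WT 1 and labelled KO 2. Reg3b, Reg3g, Reg3a and Reg3d kept a positive sign under every alternative in which they were tested. For the first 3 this was fixed where libraries were left out, since their groups do not overlap. The 17 called pathway genes of the report kept their sign in all 328 comparisons with an alternative and their call in 227 of them. They were picked because they were called, so their sign is no sign of stability, and the other genes named were not followed through the alternatives. The median change over all genes was -0.01 on the log2 scale as deposited and -0.19 when scaled by library totals. Depth is not known from these values, so members near 0, such as Reg2 and Reg3d, cannot be given a detection limit.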
